A study of Mus musculus with 4 samples.

Results

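The genes described here belong, by symbol, to families known for proteins that choose and join exons. They are called splicing factor genes for short, and a role of each member in splicing was not tested. They are the protein-coding genes whose symbols mark them as SR proteins (Srsf), heterogeneous nuclear ribonucleoproteins (hnRNP proteins, with Raly), CDC-like kinases (Clk1 to Clk4) and L-type cyclins (Ccnl1 and Ccnl2), LUC7-like (Luc7l) and transformer-2 (Tra2) proteins, or numbered RNA-binding motif (Rbm) proteins. They were taken by symbol and biotype from the deposited gene tables, whatever their level, and number 75 of the 20194 genes listed at either stage. There were 11 SR genes, 21 hnRNP genes with Raly, 6 CLK or cyclin L genes, 5 LUC7L or TRA2 genes and 32 RBM genes. All 75 were listed at embryonic day 15 (E15) and 73 at embryonic day 18 (E18), the exceptions being Rbm24 and Rbm42.

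SR proteins bind enhancer sequences in exons through RNA recognition motifs and recruit the splicing machinery through a domain rich in arginine and serine. CLK kinases phosphorylate that domain, and cyclins L1 and L2 are partners of a cyclin-dependent kinase that acts in splicing. The hnRNP proteins coat nascent transcripts and often oppose SR proteins at silencer sequences, LUC7-like proteins are relatives of a yeast component of the U1 small nuclear ribonucleoprotein, and many of these genes limit their own level through exons that send the transcript to decay.

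RNA was sequenced from brain endothelial cells of C57BL/6 mouse embryos in 4 groups of 1 library each: knockout (KO) at E18, wild type (WT) at E18, KO at E15 and WT at E15. KO embryos were UCP2f/f;Tie2-cre, meaning that a floxed gene for the mitochondrial carrier UCP2 met Cre recombinase driven by the Tie2 promoter. That promoter is active in endothelial cells and in most blood cells, so the deletion need not be limited to endothelium. WT embryos are labelled WT with no further genotype; the sources used here do not state how cells were obtained or whether embryos were pooled. The design text speaks of triplicates, and 1 library of each group was analysed here, so no difference between a pair of libraries has a replicate check.

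Library totals were 21992660 reads in the KO library at E18, 19075407 in the WT library at E18, 16328300 in the KO library at E15 and 15542930 in the WT library at E15. Ucp2 itself had 3296 reads in KO and 6696 in WT at E18, and 2666 reads in KO and 4285 in WT at E15, so it was lower in the knockout library at each stage and absent from neither; gene counts do not show which exons these reads came from. Endothelial markers were all listed (15 of 15), with a summed level of 31805 reads scaled to a library of 1000000 reads (CPM) in KO and 32262 in WT at E18, and 33200 CPM in KO and 30622 in WT at E15; none was at 0. The 12 microglial markers summed to 157 CPM in KO and 86.2 in WT at E18, and to 320 CPM in KO and 662 in WT at E15, with 1 of them at 0 in WT at E18. The 10 mural cell markers summed to 11892 CPM in KO and 9641 in WT at E18, and to 5104 CPM in KO and 7680 in WT at E15, with none at 0. Xist had 547 reads in KO and 0 in WT at E18, where the Y-linked gene Ddx3y had 0 reads in KO and 5826 in WT, while at E15 Xist had 2109 reads in KO and 2549 in WT. Sex therefore cannot be told apart from genotype at E18, nor from stage in WT. In bulk RNA, fewer cells of a type and less RNA per cell cannot be told apart either.

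The splicing factor genes held 1.27% of all reads in KO and 1.29% in WT at E18, and 1.37% in KO and 1.47% in WT at E15. A handful of abundant hnRNP and SR genes carried much of this: the 4 members with the most reads took 43.1% of the members' reads. Levels between genes were compared as CPM per kilobase of exon (RPKM), averaged over the 4 libraries. Hnrnpk, a binder of C-rich RNA, was highest at 378 RPKM. Hnrnpa2b1, a reader of UAG-type silencers, averaged 254 RPKM, Hnrnpf, which binds G-runs, 242 RPKM, and Srsf5, an SR protein, 224 RPKM. Hnrnpc, which binds U-tracts, followed at 111 RPKM and the U2AF-like factor Rbm39 at 97.4 RPKM. Of these 6, Hnrnpf shares 49.0% of its 50-base exon words with other genes, Hnrnpk 34.5%, Srsf5 27.8% and Hnrnpc 12.3%, mostly with processed pseudogenes, so their levels are uncertain.

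**Figure D1:**
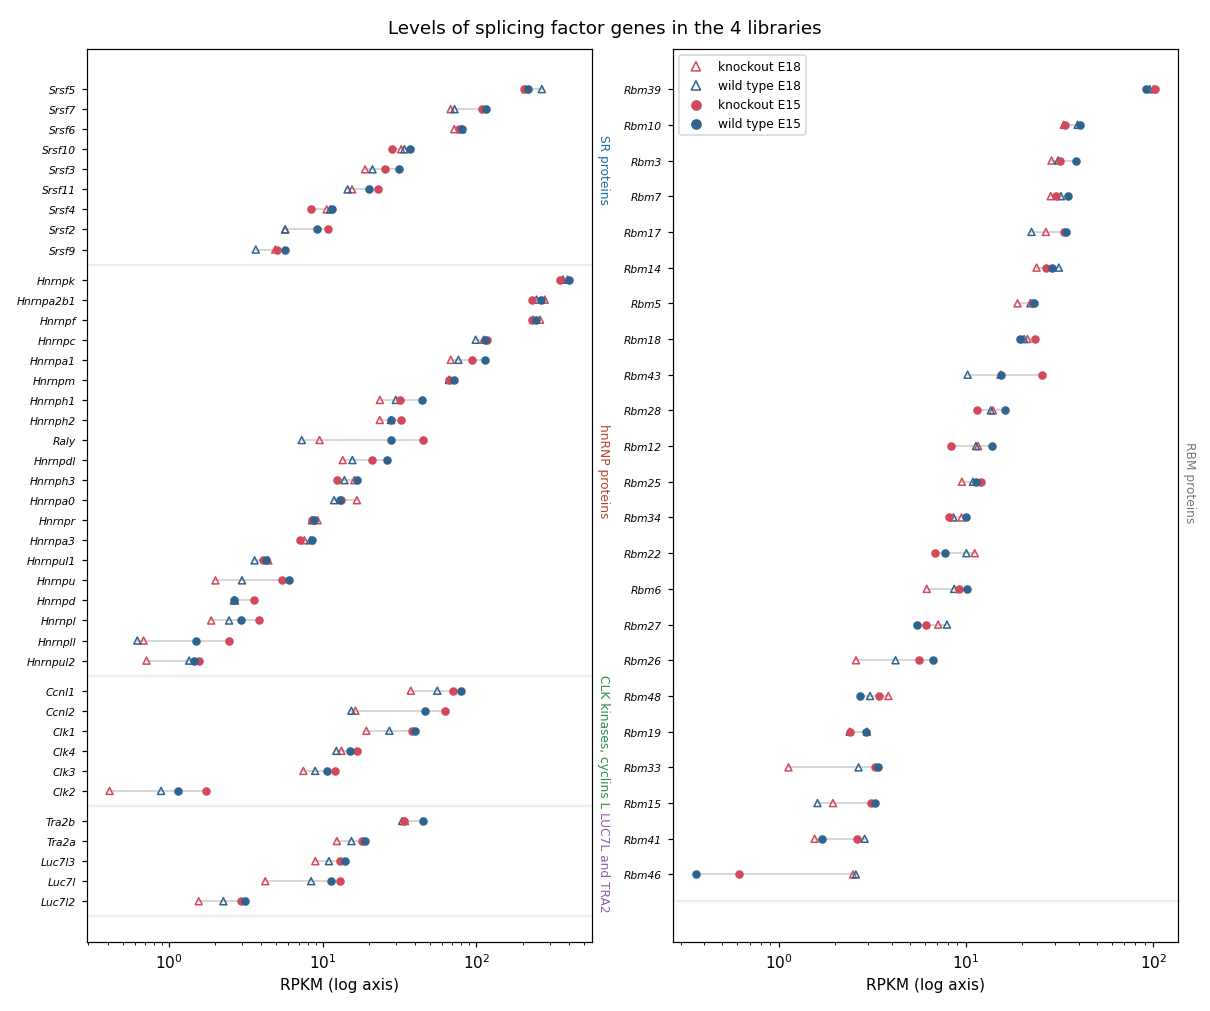
Level of the 63 members with a mean of at least 1 RPKM, on a log axis, by class. Red marks KO, blue marks WT, open triangles mark E18, filled circles mark E15, and grey lines join the lowest and highest of the 4 libraries; Hnrnpk is highest at a mean of 378 RPKM, and Raly, Ccnl2 and Rbm46 are among the members whose stages lie far apart.

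At the other end, 12 members averaged under 1 RPKM. Srsf1, the founding SR protein, had only 27 reads in KO and 14 in WT at E18, and 18 reads in KO and 29 in WT at E15. This low count stands although only 1.72% of its exon bases overlap another gene and none of its 50-base words occurs elsewhere in the annotated exons; its cause was not tested. Rbm42 had 1 read in each E15 library, and 75.4% of its exon bases lie under the annotated gene Gm21982. Rbm4 averaged 0.212 RPKM with 60.5% of its bases under Gm21992. Reads that fit more than one gene may have been left out of such counts.

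Members with a mean of at least 5 CPM varied about as much among the 4 libraries as all genes at that level. For members with a mean of at least 5 CPM, the ratio of the highest to the lowest CPM among the 4 libraries had a median of 1.48 (62 members), beside 1.49 for all 10015 such genes. Hnrnpm, an hnRNP protein with several RNA recognition motifs, was the steadiest at 1.08: it had 531 CPM in KO and 528 in WT at E18, and 530 CPM in KO and 571 in WT at E15. Its level is uncertain, since 14.7% of its exon bases overlap March2 and 28.8% of its 50-base words occur in other genes. Hnrnpr also stood at 1.08, and Rbm39, Srsf6 and Hnrnpf at 1.12. Hnrnpk had 2533 CPM in KO and 2366 in WT at E18, and 2268 CPM in KO and 2598 in WT at E15, a ratio of 1.15. By class the median ratio was 1.36 for hnRNP genes, 1.42 for RBM genes, 1.56 for SR genes, 1.57 for LUC7L and TRA2 genes and 2.11 for the CLK and cyclin L genes. A ratio under 1.5 was found for 31 of the 62 members (50%), beside 50.6% of all genes. A ratio of 2 or more was reached by 14 of the 62 members (22.6%), beside 22.8% of all genes. By class, it was reached by 5 of the 20 hnRNP genes, 4 of the 22 RBM genes and 4 of the 6 CLK and cyclin L genes. It was also reached by 1 of the 5 LUC7L and TRA2 genes and 0 of the 9 SR genes.

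The comparison of E18 with E15 asks how these genes differ between the stages in each genotype. Ratios are log2 ratios of CPM with a pseudocount of 1 CPM, which understates differences of weak genes, and their 95% intervals were taken from the raw reads by the exact Clopper-Pearson method, without the pseudocount; they cover counting error only, so they can be narrow and still say nothing of the spread between embryos. In KO, 66 members were measured. At E18 10 of them (15.2%) were at least 2-fold lower, against 10.9% of all 12465 genes. There was 1 (1.52%) at least 2-fold higher, against 4.34% of all genes. At 1.5-fold, 22 of 66 (33.3%) were lower, against 21.5% of all genes, and 2 (3.03%) were higher, against 10.6%. In WT, 67 members were measured. At E18 5 of them (7.46%) were at least 2-fold lower, against 7.58% of all 12515 genes, and 1 (1.49%) was higher, against 3.08%. At 1.5-fold, 13 of 67 (19.4%) were lower, against 17.9% of all genes, and 2 (2.99%) were higher, against 8.49%.

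The members' median ratio was -0.33 in KO and -0.26 in WT, while the median of all genes was -0.10 in KO and -0.11 in WT. That offset of all genes depends on the scaling: TMM scaling brought it to 0.01 in KO and 0.00 in WT, and the members' medians to -0.21 in KO and -0.14 in WT. By these medians the members lay below all genes under each scaling, DESeq2 size factors included (-0.20 in KO and -0.15 in WT, beside 0.02 in KO and -0.01 in WT for all genes). With TMM, 18 of 66 members were at least 1.5-fold lower in KO, against 18% of all genes, and 2 of 66 higher, against 13.4%. In WT 9 of 67 were lower with TMM, against 14.1% of all genes, and 3 of 67 higher, against 11.1%. In WT, 57 of 67 members (85.1%) lay below 0 with library totals, beside 60.9% of all genes, and 44 of 67 (65.7%) with TMM, beside 49.9%.

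**Figure D2:**
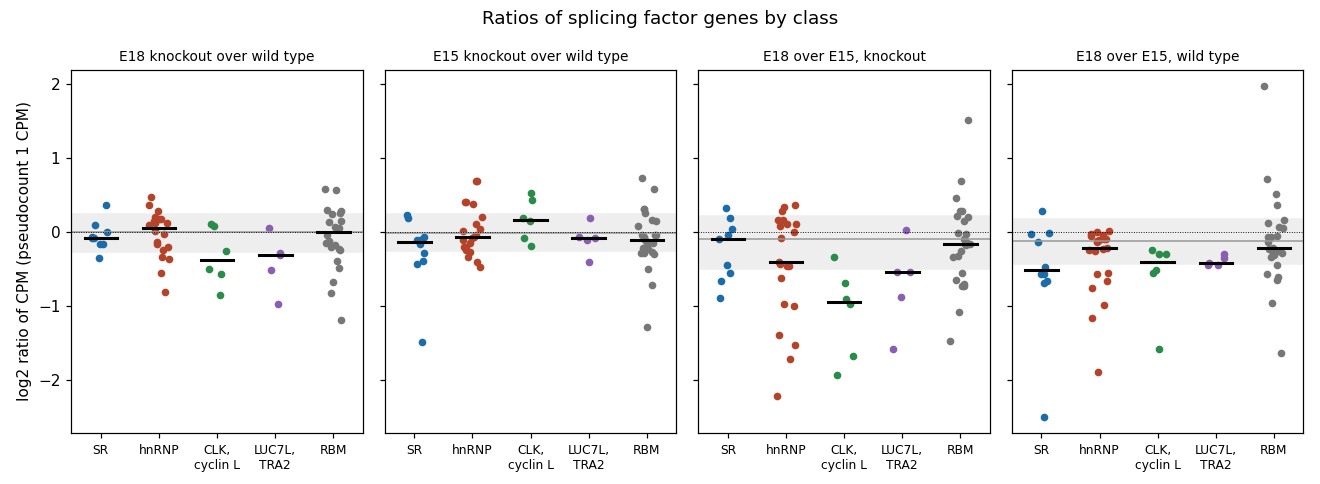
Log2 ratios of CPM (pseudocount 1 CPM) for the members measured in each of the 4 comparisons, by class; each point is a gene, black bars are class medians, the grey line and band are the median and middle 50% of all genes measured. The CLK and cyclin L genes have stage medians of -0.94 in KO and -0.41 in WT, with every point below 0 in both panels.

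The CLK and cyclin L genes shared a direction between the stages. All 6 had a ratio below 0 in KO and all 6 in WT, under library totals, TMM and DESeq2 size factors alike. Of all genes, 57.9% lay below 0 in KO and 60.9% in WT with library totals. Under TMM these shares were 49.2% in KO and 49.9% in WT. The class medians were -0.94 in KO and -0.41 in WT under library totals and -0.82 in KO and -0.30 in WT under TMM. The summed level of the 6 genes was 610 CPM in KO and 789 in WT at E18, and 1271 CPM in KO and 1235 in WT at E15. In KO 5 of the 6 were at least 1.5-fold lower, against 21.5% of all genes. In WT only 1 of the 6 was, Ccnl2, against 17.9%, so by that count the class did not stand apart in WT. The difference between the genotypes was not tested.

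Ccnl2, which encodes cyclin L2, lies on chromosome 4 (GRCm38, 155812489 to 155824543, plus strand). It had 86.3 CPM (95% interval 82.5 to 90.3) in KO and 81.3 CPM (77.3 to 85.4) in WT at E18, and 332 CPM (324 to 341) in KO and 246 CPM (238 to 253) in WT at E15. Both E18 libraries lay well below both E15 libraries. The log2 ratio of E18 to E15 was -1.93 (95% interval -2.02 to -1.87) in KO and -1.58 (-1.68 to -1.51) in WT. In an edgeR quasi-likelihood fit with stage and genotype as terms, Ccnl2 fell by 1.65 on the log2 scale at E18, with a Benjamini-Hochberg adjusted p of 0.0139. That test takes the genotypes as replicates of the stage, with 1 residual degree of freedom.

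Ccnl1, which encodes cyclin L1, had 225 CPM in KO and 334 in WT at E18, and 421 CPM in KO and 479 in WT at E15. Its E18 values lay below its E15 values in each genotype, with log2 ratios of -0.90 (-0.96 to -0.85) in KO and -0.52 (-0.57 to -0.47) in WT. The adjusted p of the edgeR stage term was 0.0984. Clk1 had 157 CPM in KO and 221 in WT at E18, and 308 CPM in KO and 326 in WT at E15. The order of the 4 libraries was the same as for Ccnl1, and the log2 ratios were -0.97 (-1.04 to -0.91) in KO and -0.56 (-0.62 to -0.50) in WT, with an edgeR adjusted p of 0.0887.

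The other kinases were weaker or steadier. Clk2 had few reads, namely 48 in KO and 90 in WT at E18, and 150 in KO and 94 in WT at E15. Its log2 ratio of CPM was -1.68 in KO (interval without pseudocount -2.57 to -1.60) and -0.30 in WT (-0.79 to 0.07), so the WT interval includes 0. Clk3, of whose exon bases 15.2% overlap Edc3 on the opposite strand, had log2 ratios of -0.68 in KO and -0.24 in WT. Clk4 had 76.8 CPM in KO and 71.3 in WT at E18, and 97.6 CPM in KO and 87.8 in WT at E15, a small difference in both genotypes.

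**Figure D3:**
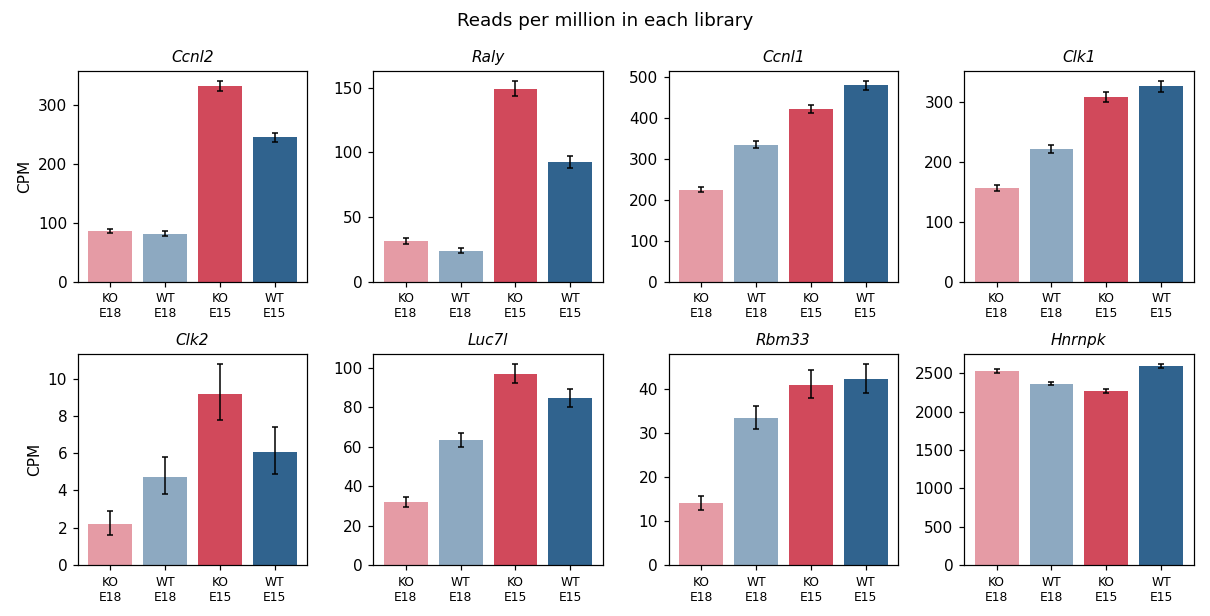
Level of 8 members in the 4 libraries, in CPM on linear axes from 0; bars are single libraries (KO red, WT blue, E18 paler) and error bars are exact Poisson 95% intervals, which cover counting error only. Ccnl2 and Raly are low in both E18 libraries, Luc7l and Rbm33 are lowest in the KO library at E18, and Hnrnpk lies between 2268 and 2598 CPM throughout.

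Promoter windows from RefSeq (GRCm38.p6, 250 bases before to 50 after an annotated start) were at hand for 66 of the 75 members, with 83 windows in all. They are shown for the cyclin L genes, for Clk4 and for Raly: the members whose stage difference passed the test (Ccnl2 and Raly) and those of the kinase and cyclin class with a CRE (Ccnl1 and Clk4). Capitals mark matches on either strand to the GC box (GGGCGG or CCGCCC), the CCAAT box (CCAAT or ATTGG), the ETS motif (CCGGAAG or CTTCCGG), the YY1 motif (AANATGGC) and the palindromic cyclic AMP response element (CRE, TGACGTCA); adjoining or overlapping matches appear as 1 run of capitals. The Ccnl2 window is chr4:155812239-155812538 on the plus strand, the Ccnl1 window chr3:65958200-65958499 on the minus strand, the Clk4 window chr11:51262864-51263163 on the plus strand and the Raly window chr2:154790860-154791159 on the plus strand.
Ccnl2: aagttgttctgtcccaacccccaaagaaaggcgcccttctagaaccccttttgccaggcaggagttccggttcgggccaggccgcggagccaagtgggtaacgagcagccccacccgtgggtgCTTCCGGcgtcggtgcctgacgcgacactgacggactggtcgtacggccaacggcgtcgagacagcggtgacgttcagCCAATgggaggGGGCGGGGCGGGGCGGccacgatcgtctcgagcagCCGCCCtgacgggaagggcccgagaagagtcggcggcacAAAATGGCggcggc
Ccnl1: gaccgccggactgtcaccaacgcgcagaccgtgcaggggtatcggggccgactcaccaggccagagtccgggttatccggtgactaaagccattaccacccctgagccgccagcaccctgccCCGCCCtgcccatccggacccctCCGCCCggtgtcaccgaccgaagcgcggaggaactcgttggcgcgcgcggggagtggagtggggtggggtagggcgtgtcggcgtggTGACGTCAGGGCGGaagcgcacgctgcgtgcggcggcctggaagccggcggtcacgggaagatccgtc
Clk4: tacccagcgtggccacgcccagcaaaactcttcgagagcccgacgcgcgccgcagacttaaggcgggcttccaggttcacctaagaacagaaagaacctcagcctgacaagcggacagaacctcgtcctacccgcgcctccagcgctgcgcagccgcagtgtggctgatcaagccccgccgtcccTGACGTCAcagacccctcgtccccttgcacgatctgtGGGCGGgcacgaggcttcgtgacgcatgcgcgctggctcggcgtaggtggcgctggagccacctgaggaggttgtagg
Raly: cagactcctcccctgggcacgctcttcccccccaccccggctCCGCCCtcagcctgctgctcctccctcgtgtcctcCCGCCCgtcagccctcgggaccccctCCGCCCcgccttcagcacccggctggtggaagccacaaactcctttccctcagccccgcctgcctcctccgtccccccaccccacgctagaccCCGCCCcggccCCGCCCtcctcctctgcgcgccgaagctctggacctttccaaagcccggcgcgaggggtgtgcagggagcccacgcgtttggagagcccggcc
The CRE occurred in windows of 3 members, Ccnl1, Clk4 and Tra2a, which is 3.61% of the members' windows beside 2.85% of the windows of protein-coding genes listed in the tables. The Raly window held 5 GC boxes and no match to the other motifs searched, and the Ccnl2 window held 4 GC boxes, 1 ETS motif, 1 CCAAT box and 1 YY1 motif.

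Over all members' windows the YY1 motif was found in 18.1% beside 7.48% of windows of listed protein-coding genes, the ETS motif in 20.5% beside 15.2%, the GC box in 66.3% beside 58.8%, and the CCAAT box in 45.8% beside 37.2%. The median GC content of the members' windows was 62.7%, beside 60.0% for windows of listed protein-coding genes. Other motifs searched on both strands were NRF1, in 10.8% beside 8.61%, and the E-box (CACGTG), in 10.8% beside 9.28%. A heat shock element of 3 alternating GAA and TTC units was found in 3 windows of 2 members, Hnrnpa2b1 and Tra2b. That is 3.61% of windows beside 0.478%, a share that counts 1 of these genes more than once. A match describes these letters alone.

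Raly encodes an RNA-binding protein close to hnRNP C, and its locus on chromosome 2 (GRCm38, 154791096 to 154867261, plus strand) lies beside the agouti coat-colour gene. It had 31.5 CPM (95% interval 29.2 to 33.9) in KO and 24.1 CPM (22.0 to 26.4) in WT at E18, and 149 CPM (143 to 155) in KO and 92.3 CPM (87.6 to 97.2) in WT at E15. The stages did not overlap, and at each stage the KO library was the higher. Raly fell by 1.97 on the log2 scale at E18 in the edgeR fit (Benjamini-Hochberg adjusted p 0.0139), and its pair ratios were -2.21 (-2.37 to -2.12) in KO and -1.89 (-2.09 to -1.78) in WT. With the highest CPM 6.19 times the lowest, it varied more than any other member with a mean of at least 5 CPM.

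Raly and Ccnl2 were the only members with an edgeR adjusted p below 0.05 for stage, 2 of 72 tested and both lower, against 0.432% of all 13416 genes tested for lower calls; no member passed as higher, against 0.909%. Without adjustment, 20 members were lower at p below 0.05 (27.8%, against 8.47% of all genes) and 3 were higher (4.17%, against 8.24%). DESeq2's Wald test called 9 of the 67 members with an adjusted p lower (13.4%, against 2.85% of all genes) and 0 higher (against 2.82%), adding Hnrnpll, Hnrnpu, Srsf7, Srsf12, Luc7l, Clk1 and Ccnl1.

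Besides Raly, 4 hnRNP genes were at least 2-fold lower at E18 in KO, with means from 0.639 RPKM (Hnrnpab) to 4.11 RPKM (Hnrnpu). Hnrnpll, an alternative splicing regulator studied in lymphocytes, had 8.00 CPM in KO and 7.29 in WT at E18, and 28.7 CPM in KO and 17.4 in WT at E15. Hnrnpu, a scaffold protein that binds chromatin and RNA, had 23.3 CPM in KO and 34.7 in WT at E18, and 63.0 CPM in KO and 69.8 in WT at E15. In both genes each E18 library lay below each E15 library. The log2 ratios were -1.72 in KO and -1.15 in WT for Hnrnpll, and -1.39 in KO and -0.99 in WT for Hnrnpu, with edgeR adjusted p values of 0.0764 for Hnrnpll and 0.0582 for Hnrnpu. Hnrnpab had only 11 reads in KO and 20 in WT at E18, and 54 in KO and 35 in WT at E15, and 29.1% of its exon bases overlap another gene. Hnrnpul2 had 112 reads in KO and 184 in WT at E18, and 183 in KO and 161 in WT at E15; only the KO library at E18 stood apart.

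The 4 most abundant hnRNP genes were close between stages. Hnrnpa2b1 had 1835 CPM in KO and 1622 in WT at E18, and 1509 CPM in KO and 1734 in WT at E15, so KO was the higher at E18 and the lower at E15. Hnrnpc had log2 stage ratios of -0.08 in KO and -0.21 in WT, and Hnrnpf of 0.17 in KO and -0.06 in WT; under TMM ratios move up by about the offset of all genes, so values this near 0 can change sign. Hnrnpa1, a classical splicing repressor of whose 50-base words 46.4% occur elsewhere, had 215 CPM in KO and 241 in WT at E18, and 296 CPM in KO and 359 in WT at E15. Hnrnpdl, a relative of Hnrnpd, had log2 stage ratios of -0.62 in KO and -0.75 in WT, and Hnrnph1, which binds G-runs, of -0.43 in KO and -0.55 in WT. For Hnrnpa1, Hnrnpdl and Hnrnph1 both E18 libraries lay below both E15 libraries with library totals. For Hnrnph1 this order was narrow, with 175 CPM in WT at E18 beside 186 in KO at E15, and TMM scaling reverses it. The share of all genes with such an order was not computed. The edgeR adjusted p values were 0.183 for Hnrnpa1, 0.136 for Hnrnpdl and 0.228 for Hnrnph1. As a class, 20 of 21 hnRNP genes (95.2%) lay below 0 in WT with library totals, beside 60.9% of all genes. With TMM 12 of 21 (57.1%) did, beside 49.9%, and with DESeq2 size factors 14 of 21 (66.7%), beside 50.8%. A common direction in WT therefore rests on the scaling.

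The SR genes had no common direction in KO: their median stage ratio there was -0.10 with library totals and 0.01 with TMM (9 measured), while in WT it was -0.51 with library totals and -0.39 with TMM (10 measured). Srsf7, which acts in splicing and in mRNA export, had 242 CPM in KO and 256 in WT at E18, and 384 CPM in KO and 412 in WT at E15. Its log2 ratios of -0.67 (-0.72 to -0.62) in KO and -0.68 (-0.74 to -0.63) in WT were nearly equal, with an edgeR adjusted p of 0.0824. Srsf2, of whose exon bases 25.3% overlap Mettl23 on the opposite strand, had 16.9 CPM in both E18 libraries, and 32.0 CPM in KO and 27.2 in WT at E15. Srsf3, which shares 31.5% of its 50-base words with other genes, had log2 ratios of -0.44 in KO and -0.57 in WT.

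Srsf5, the most abundant SR gene, was not lower at E18. It had 833 CPM in KO and 1064 in WT at E18, and 811 CPM in KO and 871 in WT at E15, so the WT library at E18 stood above the other 3. Srsf9 had 179 reads in KO and 116 in WT at E18, and 137 in KO and 147 in WT at E15. Srsf12, a weakly expressed SR-related gene, had 1 read in KO and 9 in WT at E18, and 32 in KO and 113 in WT at E15; its WT ratio was -2.49 on the log2(CPM + 1) scale, and in KO it had fewer than the 50 reads set as a minimum over both stages.

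Among the LUC7L and TRA2 genes all 5 lay lower at E18 in WT and 4 of 5 in KO, under each of the 3 scalings. Of all genes, 60.9% lay lower in WT and 57.9% in KO with library totals. The shares of all genes were 49.9% in WT and 49.2% in KO with TMM, and 50.8% in WT and 48.4% in KO with DESeq2 size factors. Luc7l had 31.9 CPM (95% interval 29.6 to 34.4) in KO and 63.4 CPM (59.9 to 67.1) in WT at E18, and 97.1 CPM (92.4 to 102) in KO and 84.9 CPM (80.3 to 89.6) in WT at E15. The KO library at E18 was far the lowest of the 4. Its log2 stage ratio was -1.58 (-1.74 to -1.48) in KO and -0.41 (-0.53 to -0.31) in WT, with an edgeR adjusted p of 0.179. Luc7l3 had stage ratios of -0.53 in KO and -0.35 in WT. Tra2a, an activator that binds GA-rich exonic enhancers, had -0.54 in KO and -0.30 in WT, and its paralogue Tra2b, uncertain because 18.3% of its 50-base words occur elsewhere, had 0.02 in KO and -0.44 in WT.

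The RBM genes were mixed. With library totals 17 of 25 measured members (68%) lay below 0 in each genotype, beside 57.9% of all genes in KO and 60.9% in WT. With TMM 14 of 25 (56%) did, beside 49.2% in KO and 49.9% in WT. Rbm26 had 19.8 CPM in KO and 32.1 in WT at E18, and 43.0 CPM in KO and 50.8 in WT at E15, lower at E18 in each genotype. Rbm33 had 14.1 CPM in KO and 33.3 in WT at E18, and 41.0 CPM in KO and 42.3 in WT at E15; here only the KO library at E18 stood far from the rest. Rbm46, known in mice for its need in germ cells, was the member higher by 2-fold in both genotypes, with 137 reads in KO and 123 in WT at E18, and 25 in KO and 14 in WT at E15. Its edgeR adjusted p for stage was 0.133. Rbm47, a cofactor of APOBEC1 RNA editing, had 9 reads in KO and 16 in WT at E18, and 22 in KO and 73 in WT at E15. The cold-inducible Rbm3, of whose 50-base words 13.6% occur elsewhere, had 134 CPM in KO and 146 in WT at E18, and 150 CPM in KO and 181 in WT at E15, and Rbm39 lay between 636 and 710 CPM in all 4 libraries.

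**Figure D4:**
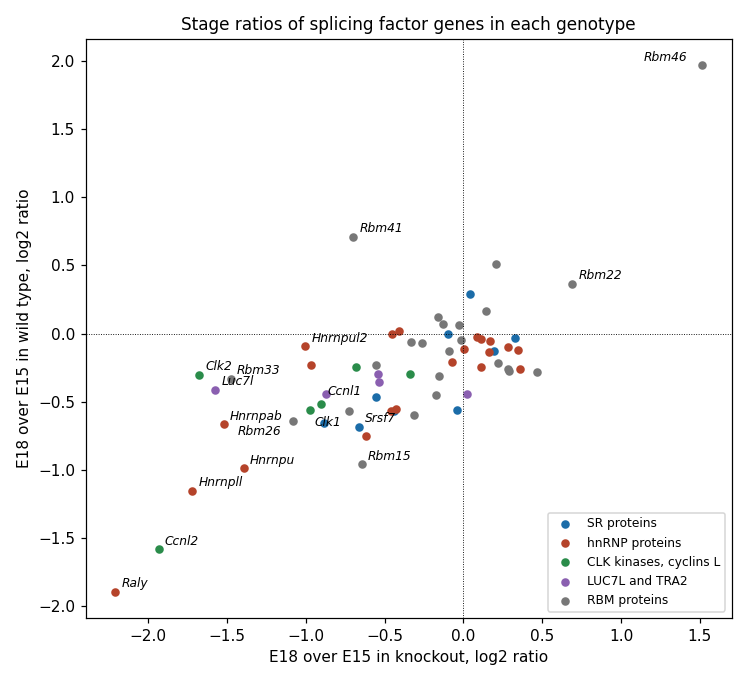
Log2 ratio of E18 over E15 in KO (horizontal) against the same ratio in WT (vertical) for the 65 members measured in both, coloured by class; dotted lines mark no difference. Raly and Ccnl2 lie at the lower left (-2.21 and -1.93 in KO), and Rbm46 at the upper right.

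The stage ratios in KO and in WT come from separate libraries and can be set side by side. Of 65 members measured in both, 67.7% had the same sign, beside 65.7% of all genes. There were 10 members at least 1.5-fold lower in both genotypes (15.4%, beside 9.04% of all genes) and 1 at least 1.5-fold higher in both (1.54%, beside 3.38%). The 10 were Raly, Ccnl2, Hnrnpll, Hnrnpu, Hnrnpab, Hnrnpdl, Srsf2, Srsf7, Rbm15 and Rbm26. Rbm41, on the X chromosome, had ratios of opposite sign, -0.70 in KO and 0.71 in WT; it was singled out after its values were seen.

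The knockout comparison asks whether these genes differed between the KO and WT libraries at either stage. At E18, 64 members were measured. In KO 0 were at least 2-fold higher, against 2.88% of all 12349 genes, and 1 (1.56%) was at least 2-fold lower, against 3.92%. At E15, 67 members were measured. In KO 0 were at least 2-fold higher, against 3.55% of all 12633 genes, and 2 (2.99%) were lower, against 3.32%. At 1.5-fold, 1 member (1.56%) was higher at E18, against 8.59%, and 6 (9.38%) were lower, against 10.7%. At E15 4 (5.97%) were higher at 1.5-fold, against 9.29%, and 3 (4.48%) lower, against 9.51%. In each direction and at each stage the members' share was below that of all genes. It was near that of all genes for lower calls at 2-fold at E15 and at 1.5-fold at E18. Restricted to genes reaching 5 CPM in either library, 8.06% of members passed 1.5-fold either way at E18, beside 15.4% of all such genes. At E15 the share was 9.52%, beside 15.8%. All 5 of these members at E18 were lower, where 8.43% of all such genes were lower and 6.95% higher. At E15 6.35% of members were higher, beside 8.06%, and 3.17% lower, beside 7.75%. The median ratio of the members was -0.07 at E18 and -0.08 at E15, beside 0.00 at E18 and -0.01 at E15 for all genes.

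Across both stages the edgeR fit called no member for genotype (0 of 72 in either direction, against 0.0224% of all genes higher and 0% lower), and DESeq2's Wald test likewise called 0 (against 0.261% of all genes higher and 0.0671% lower). Without adjustment 2 members were higher and 2 lower in KO at p below 0.05, 2.78% each way, beside 2.63% of all genes higher and 2.49% lower. Raly and Rbm43 were the higher ones, and Ccnl1 and Hnrnph1 the lower ones, with edgeR adjusted p values of 0.882 for Raly, 0.851 for Rbm43, 0.911 for Ccnl1 and 0.882 for Hnrnph1. The fit has 1 residual degree of freedom and does not show that KO and WT were alike.

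Single genes past 2-fold were few. At E18 Rbm33 was the lower one, with 310 reads in KO and 636 in WT and a log2 ratio of -1.19 (-1.44 to -1.04), while at E15 its ratio was -0.04 (-0.20 to 0.11). At E15 Srsf12 had a log2 ratio of -1.48, with 32 reads in KO and 113 in WT, and Rbm47 one of -1.28, with 22 reads in KO and 73 in WT. Both rest on few reads, and neither was measured at E18. The neuronal markers, 13 of 15 listed, summed to 51.7 CPM in KO and 58.3 in WT at E18, with 1 of them at 0 in KO, and to 64.3 CPM in KO and 124 in WT at E15; microglial markers were likewise lower in KO at E15. The part of either in the difference of Srsf12 or Rbm47 was not tested.

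Between 1.5-fold and 2-fold at E18, Luc7l had a log2 ratio of -0.97 (-1.13 to -0.86), Clk2 -0.85, Rbm41 -0.83, Hnrnpul2 -0.81 and Rbm26 -0.67, and Rbm20, a regulator of titin splicing with 63 reads in KO and 30 in WT, was the higher one at 0.59. At E15 the higher ones were Rbm43 at 0.73, Raly at 0.69, Hnrnpll at 0.69 and Rbm41 at 0.59, and Rbm12, which shares 33.1% of its exon bases with Gm28036, was lower at -0.71. Of the 6 cyclin and kinase genes, 4 kept the sign of their KO over WT ratio between the stages. At E18 Ccnl1 had a log2 ratio of -0.57 (-0.63 to -0.52) and Clk1 one of -0.49 (-0.56 to -0.43), and at E15 Ccnl1 had -0.19 (-0.23 to -0.14) and Clk1 -0.08 (-0.14 to -0.02). The ratio of Ccnl2 was 0.09 at E18 and 0.43 at E15, and that of Clk4 0.11 at E18 and 0.15 at E15, so both stood higher in the KO library at each stage. Clk2 and Clk3 lay below 0 at E18 and above it at E15. The class median was -0.37 at E18 and 0.17 at E15.

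**Figure D5:**
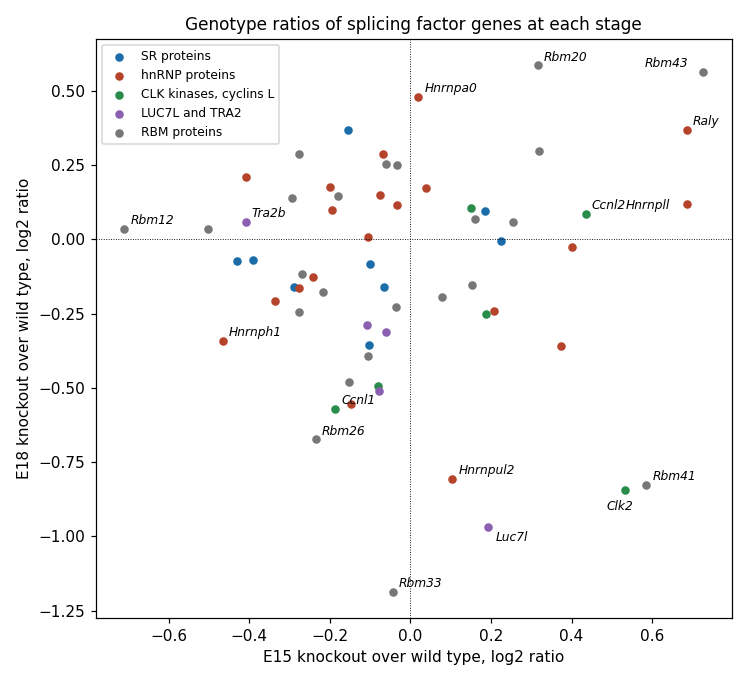
Log2 ratio of KO over WT at E15 (horizontal) against the same ratio at E18 (vertical) for the 63 members measured at both stages, coloured by class; dotted lines mark no difference. Points scatter around 0, with Rbm33 lowest at E18 (-1.19) and Clk2, Luc7l and Rbm41 on opposite sides of 0 at the stages.

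The genotype ratios at the stages also come from separate libraries. Of 63 members measured at both, 57.1% had the same sign, beside 51.5% of all genes. At 1.5-fold, 0 members were higher in KO at both stages (beside 1.54% of all genes) and 0 were lower at both (beside 1.62%).

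Other genes of the splicing machinery were described from lists of known components. In the edgeR fit for stage, 0 of 3 U1 proteins, 0 of 17 U2 and U2AF proteins, 0 of 7 Sm core proteins, 0 of 23 tri-snRNP proteins, 0 of 14 Prp19 complex proteins, 0 of 14 SR kinases and phosphatases and 0 of 39 other splicing regulators passed an adjusted p of 0.05. The same was true of 0 of 11 exon junction complex genes and 0 of 12 genes of nonsense-mediated decay. Of all 13416 genes tested, 0.909% passed as higher and 0.432% as lower. Counts of 0 in lists this short therefore do not set these genes apart. Among 21 SR-related proteins 1 was higher, Scaf1, and 1 was lower, Rsrp1. Rsrp1, an arginine- and serine-rich protein, had 3650 reads in KO and 3341 in WT at E18, and 5969 in KO and 6803 in WT at E15, with a Benjamini-Hochberg adjusted p of 0.0195 in edgeR. Scaf1, which has a domain that binds RNA polymerase II, had 1529 reads in KO and 819 in WT at E18, and 366 in KO and 319 in WT at E15 (edgeR adjusted p 0.0346). For genotype the edgeR fit called 0 genes in each of these lists, against 0.0224% of all genes higher and 0% lower. With so few calls among all genes, this says little about the lists.

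In the pair ratios, the stage median was -0.38 in KO and -0.20 in WT for SR-related proteins, -0.24 in KO and -0.15 in WT for U2 and U2AF proteins, and -0.21 in KO and -0.09 in WT for tri-snRNP proteins. It was 0.01 in KO and -0.08 in WT for the U1 proteins, -0.27 in KO and -0.10 in WT for the Sm core and -0.12 in KO and -0.01 in WT for the Prp19 complex. For SR kinases and phosphatases it was -0.23 in KO and -0.21 in WT, and for the other splicing regulators -0.24 in KO and -0.30 in WT. The exon junction complex genes had medians of -0.09 in KO and -0.20 in WT, and those of nonsense-mediated decay -0.25 in KO and 0.01 in WT. Of the 21 SR-related proteins, 8 were at least 1.5-fold lower at E18 in KO, beside 21.5% of all genes, and 3 in WT, beside 17.9%. Sf3a2, a U2 component with few reads, was 2-fold higher at E18 in both genotypes, with 237 reads in KO and 146 in WT at E18, and 42 in KO and 20 in WT at E15. Upf3a, which acts in nonsense-mediated decay, had 629 reads in KO and 236 in WT at E18, and 1044 in KO and 525 in WT at E15, higher in KO at each stage (edgeR adjusted p for genotype 0.662).

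Some stress-related genes differed between the stages. In the edgeR fit 2 of the 14 heat shock genes were lower at E18, Hspa1a and Hspa1b, against 0.432% of all genes. The heat shock gene Hspa1a had 1985 reads in KO and 3017 in WT at E18, and 17882 in KO and 11692 in WT at E15 (edgeR adjusted p 0.0158). The 14 heat shock genes summed to 4721 CPM in KO and 4984 in WT at E18, and to 6831 CPM in KO and 6432 in WT at E15. The 21 genes often induced by cell dissociation, such as Fos and Egr1, summed to 17751 CPM in KO and 28061 in WT at E18, and to 14309 CPM in KO and 15293 in WT at E15. Of the 20 tested, 5 were higher at E18 in the edgeR fit, against 0.909% of all genes. In the KO pair ratios, 4 of 19 measured were at least 1.5-fold higher at E18, against 10.6% of all genes, and 4 lower, against 21.5%. In WT 10 of 20 measured were higher, against 8.49%, and 2 lower, against 17.9%. None of either list was at 0. Their part in the stage differences of the splicing factor genes was not tested.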

How the data were processed

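Transcripts were counted in 4 libraries of mouse brain endothelial cells, 1 per group. The authors deposited raw read counts per Ensembl gene for each stage, per the file headers, with the KO and the WT library side by side. The deposited CPM values are those counts scaled to 1000000 reads, with a count of 0 set to 0.5 read; they differ from the listed totals by 1057 to 3182 reads per library and were used only to check the columns. The tools in the submitters' processing notes are HTSeq 0.6.0, TopHat2 2.0.12 and Bowtie2 2.2.3, with mm9 as build; no role or order is given. Of the gene identifiers found in GENCODE M21, 90.1% had identical start and end, as had 68 of the 75 members, so coordinates are read as GRCm38. No source used here states whether reads were counted by strand.

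Counts were scaled to the total of all listed genes, as CPM. A gene counted as measured when one of the libraries compared had 1 CPM or more and the pair held 50 reads or more; the stage comparisons took genes listed at both stages. Differences of 2-fold and 1.5-fold mark size only, since each group is 1 library. Tools were Python 3.11.15, SciPy 1.17.1, R 4.3.3, edgeR 4.0.16 and DESeq2 1.42.0. Additive tests were run in edgeR (quasi-likelihood F test) on the 4 libraries with TMM scaling, stage and genotype as terms, a minimum of 1 CPM in 2 libraries, and Benjamini-Hochberg adjustment over 13416 genes. It had 1 residual degree of freedom and a common dispersion of 0.111, moderated with 6.14 prior degrees of freedom, so embryo-to-embryo spread within a group is not in its p-values. Tested on simulated counts, the stage term recovered 70.5% of 200 genes changed 4-fold, with 3 false calls, over 13101 genes. Every gene was simulated at the common dispersion, and the changed genes had a mean of at least 5 CPM. Smaller changes and dispersions that differ between genes were not simulated. The pair ratios recovered 100% with 0 false calls in each comparison (9782 to 10210 genes), where only counting error was simulated.

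Exon length, exon overlap and 50-base words shared with other annotated exons came from GENCODE M21. A member is called uncertain where at least 10% of its exon bases overlap another gene or at least 10% of its 50-base words occur elsewhere; 49 members were free of both. Alternatives were TMM scaling, DESeq2 size factors, no filter, a filter of 5 CPM, a pseudocount of 5 CPM and DESeq2's Wald test; leaving out overlapping or copied members was added after seeing the data. The members, the lists and the tests were chosen with earlier results of these data known. Named are members past 2-fold in a comparison, the most different of each class, the 5 with the highest RPKM, those past the additive test and a list of well-studied members, 33 in all; other members named were chosen after their values were seen.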

Additional observations from a re-analysis of the deposited data

Results flagged for a closer look

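The KO over WT ratio of 15 members lay on opposite sides of 0 at the stages, with counting intervals that leave out 0 at each. Opposite signs alone were common, in 27 of 63 members and in 5719 of 11784 genes measured at both stages. How many of all genes also have intervals that leave out 0 was not computed, so the 15 have no background. For 3 of these 15 members at least 1 of the ratios was also past 1.5-fold. For Clk2 it was -0.85 at E18 and 0.53 at E15 on the log2 scale, a difference of -1.38 (E18 minus E15), with 48 reads in KO and 90 in WT at E18, and 150 in KO and 94 in WT at E15. The ratio of Luc7l was -0.97 at E18 and 0.19 at E15, a difference of -1.16. The ratio of Rbm41 was -0.83 at E18 and 0.59 at E15, a difference of -1.41, with 227 reads in KO and 364 in WT at E18, and 284 in KO and 175 in WT at E15. Rbm41 is X-linked, and the E18 libraries differ in sex as well as genotype. With 1 library per group, none of these differences was tested.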

How the results depend on the processing

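Of 80 recomputed summaries, 74 stayed within 1.5 times their value or kept their direction and side of the threshold. A pseudocount of 5 CPM lowered the count of members past 2-fold at E15 between KO and WT to 0, and a filter of 5 CPM to 1, beside 2. The same pseudocount gave 3 members past 1.5-fold at E18 between KO and WT, beside 7. It also gave 6 past 2-fold between stages in KO, beside 11, and 3 in WT, beside 6. A larger pseudocount shrinks ratios of weakly expressed genes by construction. DESeq2's Wald test called 9 members for stage, beside 2 with edgeR; the cause was not tested. Raly and Ccnl2 kept edgeR adjusted p values between 0.0139 and 0.0302 over the scaling and filter alternatives. Of the ratios of named members, 627 stayed within their counting interval and 93 moved beyond it, 42 under TMM, 42 under DESeq2 size factors and 9 under the larger pseudocount; no ratio past 2-fold changed sign. Leaving out members with overlapping or copied exons changed the stage medians to -0.43 in KO and -0.30 in WT.

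No paired analysis was possible because each group holds 1 library and the groups share fewer than 2 replicate numbers. With 1 library per side, leaving a library out of a pair comparison gives no value, and the additive fit would keep no residual degree of freedom. Depth limits the members under 1 RPKM, for which a difference was not detectable unless large.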
